A study of Mus musculus with 2 samples.

Results

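Tnfaip3, Tnip1, Birc2, Birc3, Traf1, Traf2, Traf3, Cyld, Cflar and Tradd encode adaptors and feedback inhibitors that work at the receptor for TNF-α. They were taken by name from the deposited table, where all 10 were found among 49492 genes. RNA-seq had been performed on colonies/organoids grown from mammary basal cells, which were sorted from WT adult female mice and kept in 3D culture for 10 days. The control group received no cytokine, the TNF-α group received mouse TNF-α at 10 ng/mL, and each group was 1 library. No difference between the groups therefore has a replicate check, and how many animals or wells stood behind a library is not given in the sources used here.

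When TNF-α binds its receptor, the adaptor TRADD is drawn to the receptor's tail and brings in a kinase, TRAF proteins and the cellular inhibitors of apoptosis. The latter are ubiquitin ligases, and the chains they build hold the kinases that release NF-κB, a transcription factor of inflammation. Enzymes and binding proteins that remove or cap these chains, together with the caspase-8 inhibitor encoded by Cflar, limit the signal and keep the cell from dying. Several of these brakes are known NF-κB target genes, so the pathway produces its own inhibitors.

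The promoters of 6 of the genes are shown first, because the members with the highest ratios and those with an NF-κB consensus match are only partly the same genes. Each window runs from 250 bases before to 50 bases after a RefSeq transcript start on GRCm38.p6. It was read along the gene's own strand, and capitals mark matches to the NF-κB consensus motif, searched by its name on both strands.
Tnfaip3: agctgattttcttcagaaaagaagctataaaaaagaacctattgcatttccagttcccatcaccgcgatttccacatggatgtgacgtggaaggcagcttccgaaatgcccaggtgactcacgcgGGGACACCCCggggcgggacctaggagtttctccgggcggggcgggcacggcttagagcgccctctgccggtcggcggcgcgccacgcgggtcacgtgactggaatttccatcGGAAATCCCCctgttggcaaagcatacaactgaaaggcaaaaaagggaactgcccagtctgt
Tnip1: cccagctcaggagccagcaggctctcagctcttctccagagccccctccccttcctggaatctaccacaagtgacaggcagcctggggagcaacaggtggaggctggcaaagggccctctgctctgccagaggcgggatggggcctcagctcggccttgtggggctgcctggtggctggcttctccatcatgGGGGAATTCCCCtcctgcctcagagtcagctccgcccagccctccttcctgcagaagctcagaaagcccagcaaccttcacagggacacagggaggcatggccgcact
Traf3: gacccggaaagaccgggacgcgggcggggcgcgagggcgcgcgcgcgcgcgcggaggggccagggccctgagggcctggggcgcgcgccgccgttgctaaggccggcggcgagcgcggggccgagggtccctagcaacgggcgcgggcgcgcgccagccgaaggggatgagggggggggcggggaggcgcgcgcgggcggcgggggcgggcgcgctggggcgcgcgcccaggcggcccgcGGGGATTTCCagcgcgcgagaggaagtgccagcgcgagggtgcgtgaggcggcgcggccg
Cyld: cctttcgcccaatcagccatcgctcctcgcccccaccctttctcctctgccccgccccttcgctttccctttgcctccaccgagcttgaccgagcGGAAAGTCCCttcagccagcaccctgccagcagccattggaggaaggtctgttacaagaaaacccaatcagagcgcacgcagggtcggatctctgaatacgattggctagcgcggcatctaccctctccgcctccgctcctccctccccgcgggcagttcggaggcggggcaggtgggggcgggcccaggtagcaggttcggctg
Birc3: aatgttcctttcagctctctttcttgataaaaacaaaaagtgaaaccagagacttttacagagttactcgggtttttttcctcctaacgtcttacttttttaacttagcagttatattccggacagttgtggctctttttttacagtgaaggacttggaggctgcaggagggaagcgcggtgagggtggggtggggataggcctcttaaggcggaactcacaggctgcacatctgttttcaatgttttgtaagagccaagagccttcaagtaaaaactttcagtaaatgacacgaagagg
Traf1: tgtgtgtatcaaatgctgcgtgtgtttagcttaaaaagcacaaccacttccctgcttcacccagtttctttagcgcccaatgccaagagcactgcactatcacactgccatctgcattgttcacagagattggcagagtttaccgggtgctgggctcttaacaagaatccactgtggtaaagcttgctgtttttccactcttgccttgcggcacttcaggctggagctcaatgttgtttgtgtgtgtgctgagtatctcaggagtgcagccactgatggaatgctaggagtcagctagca
In the Tnfaip3 window (chr10:19015361-19015660, minus strand) the matches began 125 and 12 bases before the RefSeq start site. The bounds with which Tnfaip3 was counted reach to 19015657, so both matches lie inside them. A second Tnfaip3 window further downstream held 0. The Tnip1 window (chr11:54962891-54963190, minus strand) held 1 palindromic run, beginning 58 bases before the start, in which 3 matches overlapped. Traf3 (chr12:111166120-111166419, plus strand) had 1 match beginning 10 bases before the start and Cyld (chr8:88696778-88697077, plus strand) had 1 beginning 155 bases before it. The windows of Birc3 (chr9:7873121-7873420, minus strand) and Traf1 (chr2:34961723-34962022, minus strand) held 0, as did those of Birc2, Traf2 and Cflar. Windows were found for 9 of the 10 genes, all but Tradd. Of their 11 windows, 4 held a match, beside 5.29% of the 16035 windows of all genes tested and 4.51% of all 32851 windows. Of the 4 genes called higher below, Tnfaip3 and Tnip1 had a match and Birc3 and Traf1 had 0 in these windows.

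The data behind the values were raw read counts per gene, with totals of 44462275 for the control and 53487087 for TNF-α. Library sizes were scaled by edgeR's TMM method, and counts divided by these sizes are given as CPM. Log2 ratios of TNF-α to control used a prior count of 2. The 20771 genes whose counts in both libraries came to at least 10 were tested. Intervals are 95% Clopper-Pearson intervals of the TNF-α share of a gene's counts, turned into a ratio. They cover counting error only, and the spread from culture to culture is not in them. They also take each read as a separate molecule, which reads copied by PCR are not, so they may be too narrow. Calls of higher or lower required more than 2-fold and an interval wholly on that side of no change. All 10 genes passed the filter, the least counted being Tradd with 640 counts in all. No other gene's exons shared a base with their exons, and the 5 genes lying within or partly within their bounds had at most 7 counts in a library. Whether counting used the strand is not given in the sources used here.

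All 10 genes had a ratio above 0, beside 10506 of the 20771 genes tested. Of the 10, 4 were called higher, namely Tnfaip3, Birc3, Tnip1 and Traf1. By the same rule 7.39% of all genes tested were called higher. None of the 10 was called lower, against 5.89% of all genes. Low counts pass 2-fold more often, and among the 11433 genes with at least 500 counts 3.32% were called higher and 2.14% lower. The median log2 ratio of the 10 genes was 0.88, beside 0.0038 for all genes tested, whose 5th and 95th percentiles were -1.20 and 1.42. The interval lay above 0 for 9 genes and included it for Tradd. At high counts even a small ratio, such as 0.12 for Cflar (interval 0.07 to 0.17), has an interval above 0. The share of all genes with such an interval was not computed. In sum the 10 genes took 450.1 CPM in the control and 862 CPM with TNF-α, and the 4 called genes made up 77.2% of that difference of 412 CPM. In bulk RNA, a change in the number of cells of a type and a change in RNA per cell cannot be told apart.

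**Figure D1:**
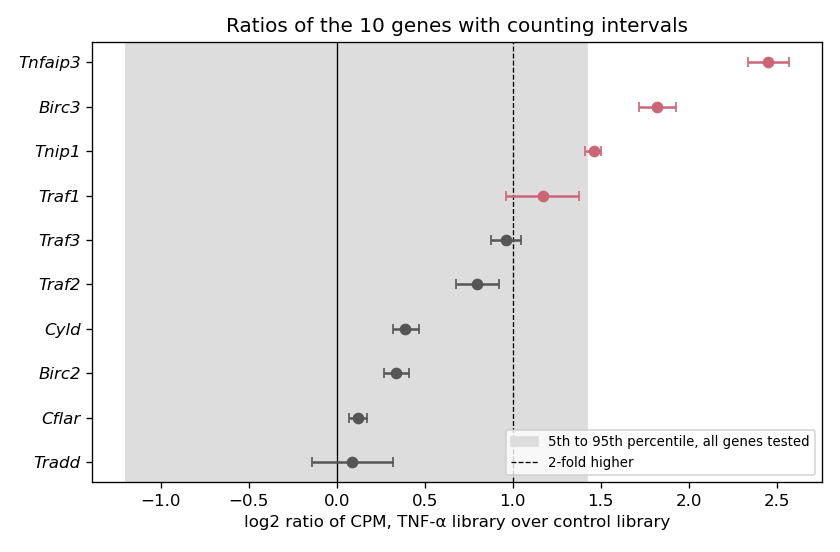
Each point is the log2 ratio of CPM of 1 gene, TNF-α library over control library, and the bar is its 95% interval for counting error. Red points passed the call, the dashed line marks 2-fold and the grey band runs from -1.20 to 1.42, the 5th to 95th percentile of the 20771 genes tested. Tnfaip3 stands highest at 2.45 and Tradd lowest at 0.09.

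Among the feedback inhibitors, Tnfaip3 had the highest ratio of the 10 genes. It encodes a ubiquitin-editing enzyme that takes the activating chains off the receptor complex, and is located on chromosome 10 of GRCm38 (19000910 to 19015657). Its reads numbered 743 counts (16.7 CPM) in the control and 4875 counts (91.4 CPM) with TNF-α, a log2 ratio of 2.45 (interval 2.34 to 2.57) or 5.47-fold. That ratio stood above 98.3% of all genes tested. Tnip1 encodes the partner that binds the same enzyme and ubiquitin chains, and is located on chromosome 11 (54910785 to 54962917). It went from 4748 counts (107 CPM) to 15598 (292 CPM), a log2 ratio of 1.46 or 2.74-fold (interval 2.66 to 2.84). This fold was smaller than that of Tnfaip3, but Tnip1 gave 45.1% of the summed difference in CPM of the 10 genes. Cyld encodes another deubiquitinase that acts on the same complex, and is located on chromosome 8 (88697028 to 88751945). Control reads numbered 2451 and TNF-α reads 3856, for a log2 ratio of 0.39 (interval 0.32 to 0.47), and was not called. The deubiquitinase genes thus differed from each other within each library, in a comparison that needs no scaling between libraries. Per length, Tnfaip3 stood at 0.528 times Cyld in the control (interval 0.485 to 0.573) and at 2.20 times Cyld with TNF-α (interval 2.11 to 2.30).

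Birc3 and Birc2 encode the cellular inhibitors of apoptosis, ubiquitin ligases that modify the kinase of the receptor complex. They are neighbours on the minus strand of chromosome 9, Birc2 from 7818227 to 7837064 and Birc3 from 7848699 to 7873186, with 11634 bases between them. Birc3 had 880 counts (19.7 CPM) in the control and 3735 (70.0 CPM) with TNF-α, giving a log2 ratio of 1.82 (interval 1.72 to 1.93) or 3.54-fold. Birc2 had 2928 counts (65.7 CPM) and 4429 (83.0 CPM), a log2 ratio of 0.34 (interval 0.27 to 0.41), and was not called. The log2 ratios of these paralogs differed by 1.49 (interval 1.36 to 1.61 for counting error). Per length, Birc3 stood at 0.275 times Birc2 in the control and at 0.771 times with TNF-α, so Birc2 had the higher level per length in both libraries. How reads that fit both paralogs were counted is not given in the sources used here.

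Of the TRAF genes, which encode the adaptors that carry these ligases to receptors, Traf1 alone was called. Traf1 lacks the ring domain of the others and is known as an NF-κB target gene, and is located on chromosome 2 (34941750 to 34961772). From 254 counts (5.70 CPM) in the control and 685 (12.8 CPM) with TNF-α it had a log2 ratio of 1.17 (interval 0.96 to 1.38) whose lower end lay under 2-fold. Traf3, a brake on the non-canonical branch of NF-κB signaling, is located on chromosome 12 (111166370 to 111267153). Its 1621 control counts and 3783 TNF-α counts gave a log2 ratio of 0.96 (interval 0.88 to 1.05), just short of 2-fold. The call divides these genes more sharply than the counts do, since the difference of 0.20 between their log2 ratios had an interval from -0.02 to 0.43. Traf2, the adaptor that bridges TRADD and the inhibitors of apoptosis, is located on chromosome 2 (25517982 to 25546940) and had 826 counts in the control and 1726 with TNF-α. Its log2 ratio was 0.80 (interval 0.68 to 0.92), above 88.7% of all genes. With a threshold of 1.5-fold, Traf2 and Traf3 joined the called genes and made 6 of 10, beside 12.1% of all genes tested.

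Cflar and Tradd stood closest to no change. Cflar encodes the inhibitor that competes with caspase-8 in the death-inducing complex, and is located on chromosome 1 (58711508 to 58758884). Reads came to 5327 counts (119.5 CPM) in the control and 6935 (130.0 CPM) with TNF-α, a log2 ratio of 0.12 (interval 0.07 to 0.17). These counts sum all isoforms of the gene, so the long and short forms of the protein could not be separated. Tradd, the first adaptor to join the receptor, is located on chromosome 8 (105258286 to 105264609) and had 281 and 359 counts. Its log2 ratio of 0.09 (interval -0.14 to 0.32) was not distinguishable from no change at this depth, and 2-fold lay outside that interval. Ordered by ratio, the genes ran Tnfaip3, Birc3, Tnip1, Traf1, Traf3, Traf2, Cyld, Birc2, Cflar and Tradd. Of the 9 neighbouring pairs in that order, Traf1 and Traf3, Cyld and Birc2, and Cflar and Tradd did not differ beyond counting error. These intervals take every count as a separate read and were not recomputed with counts halved, as was done below for single genes. The differences of Traf3 and Traf2 (0.16, interval 0.01 to 0.31) and of Tnip1 and Traf1 (0.29, interval 0.08 to 0.50) lay closest to that limit.

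Levels of different genes were compared per length, as TPM, in which counts are divided by summed exon length before scaling. That length sums the annotated exons of all transcripts, used or not, from 1866 bases for Tradd to 12669 for Cflar. Every comparison of levels between genes given here depends on it, and the intervals do not cover it. In the control library they ran from 1.82 TPM for Traf1 to 85.0 TPM for Tnip1, with Birc2 at 40.5 TPM and Cflar at 26.6 TPM next to the top. Traf2 at 10.3 TPM did not differ beyond counting error from its neighbours in the order, Birc3 at 11.1 TPM and Tradd at 9.54 TPM, and Tnfaip3 at 6.51 TPM lay above Traf1 only. In the TNF-α library Traf1 remained lowest at 3.98 TPM and Tnip1 highest at 226 TPM. Tnfaip3 reached 34.6 TPM and Birc3 38.2 TPM, so that both genes, which lay under Cflar in the control, stood above its 28.0 TPM. Tnip1 took 39.0% of the summed TPM of the 10 genes in the control and 50.2% with TNF-α. Cflar took 12.2% and 6.24%, although its own count was not lower. These are amounts of transcript and do not measure the proteins or their place at the receptor.

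**Figure D2:**
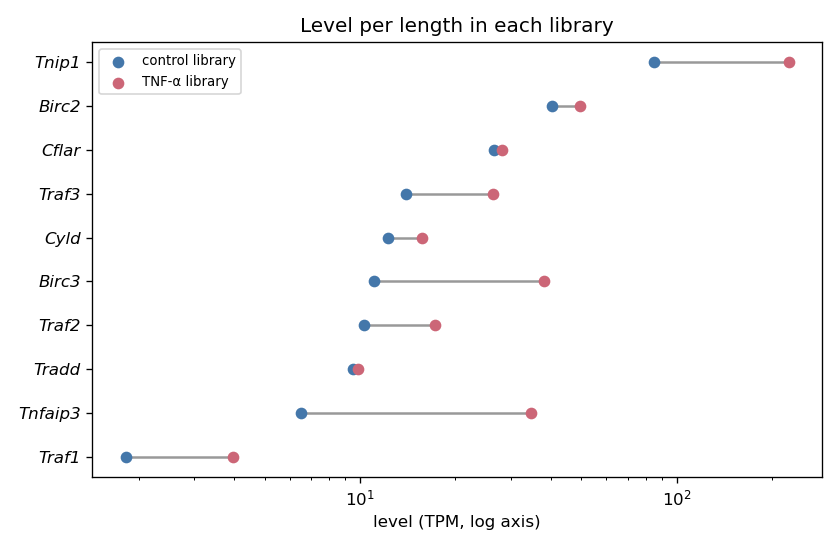
Points give the level of each gene in TPM on a log axis, blue for the control library and red for the TNF-α library, with genes ordered by the control. The longest line belongs to Tnfaip3, which goes from 6.51 to 34.6 TPM, while the points of Tradd (9.54 and 9.86 TPM) nearly coincide.

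The rest of the pathway was described from 7 lists of 56 further genes. Of the 54 that passed the filter, 12 were called higher (22.2%, beside 7.39% of all genes) and 0 lower, and their median log2 ratio was 0.13. Among receptors and ligand, the main receptor gene Tnfrsf1a had 1729 counts in the control and 1623 with TNF-α, a log2 ratio of -0.35 (interval -0.45 to -0.25), and was not called. Tnfrsf1b, which encodes the other receptor, was counted 18 and 207 times, with a log2 ratio of 3.14 (interval 2.57 to 4.05). Tnf itself was counted 112 and 1156 times, with a log2 ratio of 3.09 (interval 2.83 to 3.40). Per length, Tnfrsf1a at 32.1 TPM still exceeded Tnfrsf1b at 2.78 TPM in the TNF-α library.

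Most genes for the other proteins of the receptor complex were not called. The same was true of all genes tested, of which 7.39% were called higher and 5.89% lower. Of 12 genes for kinases and death domain partners, 10 were not called and the median was 0.07, with Chuk, which encodes a catalytic subunit of the IκB kinase, lowest at -0.12. The called ones were Ripk3 at 1.77 (60 and 250 counts) and Mlkl at 1.55 (779 and 2726 counts), which encode the kinase and the pore-forming protein of necroptosis. Casp8, which encodes the caspase that the Cflar product restrains and is named here after its values were seen, stood at 0.63 (interval 0.56 to 0.70) with 2456 and 4554 counts. Among 14 genes for the linear ubiquitin ligase, deubiquitinases and ubiquitin-binding partners, the median was 0.01 and Otulin, which removes linear chains, was lowest at -0.23. Tnip3, a relative of Tnip1, was the called one and the highest of all these genes, with 116 counts in the control and 2492 with TNF-α, a log2 ratio of 4.14 (interval 3.90 to 4.45). The next highest was Tank, also named after its values were seen, at 0.87 (2558 and 5605 counts). Per length Tnip3 lay under Tnip1, at 11.7 TPM in the TNF-α library.

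Of the 4 other TRAF genes 0 were called, with a median of 0.02, from Traf5 at -0.51 (828 and 695 counts) to Traf4 at 0.23. With 7.39% of all genes tested called higher and 5.89% lower, 0 of 4 does not set these genes apart. Of the 8 other BIRC family genes 6 passed the filter, from Naip6 at -0.74 (43 and 30 counts) to Naip2 at 1.73, which was called on 13 counts against 2 (interval 0.30 to 5.63). Naip genes are near-identical copies, and their counts are uncertain. The well counted Birc5, Birc6 and Xiap, named after their values were seen, stood at 0.87, 0.01 and -0.03 and were not called. In the non-canonical branch, 3 of 6 genes were called, the receptor gene Cd40 at 2.29 (18 and 114 counts), Relb at 1.46 and Nfkb2 at 1.27, while Map3k14, whose kinase product TRAF3 holds down, was lowest at -0.32 (735 and 704 counts). Among 11 genes of NF-κB subunits and IκB proteins, 5 were called, Nfkbie at 2.64, Bcl3 at 1.70, Nfkbia (2156 and 10342 counts) and, shared with the list before, Relb and Nfkb2. The lowest of them was the subunit gene Rela at -0.10, and the list median was 0.77.

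**Figure D3:**
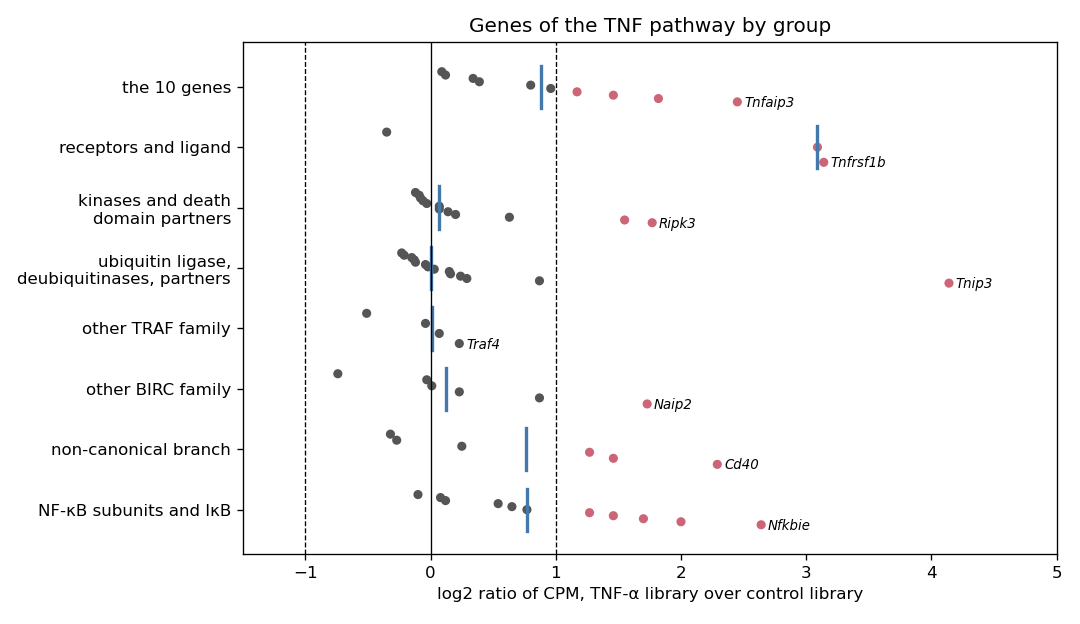
Each point is the log2 ratio of CPM of 1 gene, TNF-α library over control library, in rows by group, with the blue bar at the group's median and red points for called genes. Dashed lines mark 2-fold, points are spread vertically for legibility, and the highest gene of each row is named. Medians lie at 0.88 for the 10 genes, 0.07 for kinases and death domain partners and 0.02 for the other TRAF genes.

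Genes beside the called members were compared with them by position. On either side of Tnfaip3, the nearest genes tested were Perp at -0.46 and the interferon-γ receptor gene Ifngr1 at 0.96, which were 143836 and 576291 bases away and were not called. Birc3 lay between Birc2 and Yap1, the latter at -0.09. Tnip1 lay 407 bases, tail to tail, from the glutathione peroxidase gene Gpx3, which was called lower with 39022 counts in the control and 1519 with TNF-α, a log2 ratio of -4.94. On its other side Anxa6 stood at -0.09. Traf1 lay between Phf19 at 0.47 and Hc, which encodes a complement component and was called lower on 156 and 25 counts at a log2 ratio of -2.80 (interval -3.57 to -2.29). None of these few neighbours of a called member was itself called higher, and at the share of 7.39% of all genes few would be. Cyld, which was not called, lay 8553 bases from Nod2, a sensor of bacterial cell wall named here after its values were seen, which was called higher on 44 and 453 counts at a log2 ratio of 3.05 (interval 2.66 to 3.59). Over the 20 neighbour positions of the 10 genes, 3 neighbours were called higher and 2 lower, beside 7.39% and 5.89% of all genes. The 3 were Birc3, as the neighbour of Birc2, and Nod2 and Gm6625 on either side of Cyld.

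**Figure D4:**
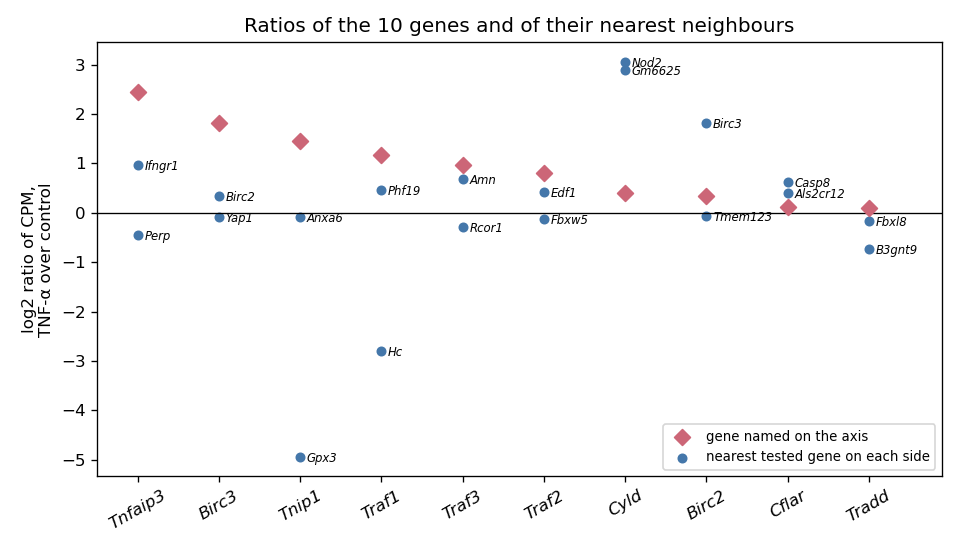
Red diamonds give the log2 ratio of CPM, TNF-α library over control library, of the gene named on the axis, and blue circles that of the nearest tested gene on each side of it. The lowest neighbour is Gpx3 beside Tnip1 at -4.94 and the highest is Nod2 beside Cyld at 3.05.

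Markers of the cell types the cultures could hold were measured beside these values. All 8 basal markers were found, summing to 11771 CPM in the control and 10770.5 CPM with TNF-α. Their median log2 ratio was -0.14, with 5 ratios below 0 and 3 above, and Oxtr was the one called, lower at -1.19. All 8 luminal markers had ratios below 0, with a median of -0.89, and Prlr and Esr1 were called lower, at -1.15 and -1.48. The 10 leukocyte and macrophage markers summed to 14.5 CPM in the control and 20.8 CPM with TNF-α, and Cd14 was the one called, at 1.19, with 6.19 CPM in the control and 14.2 CPM with TNF-α. Of the 7 that passed the filter, 5 had ratios below 0. The pan-leukocyte marker Ptprc had 26 and 38 counts, Csf1r 92 and 81, Cd68 83 and 75, Lyz2 114 and 109 and Itgam 50 and 40, while Adgre1 had 0 and 2 and Cd3e 0 in both. The 4 endothelial markers had a median of -0.24 with 0 called. The 5 fibroblast markers summed to 373 CPM in the control and 407 CPM with TNF-α, well above the leukocyte and macrophage markers. Dcn was the one called, higher at 1.39, and the list median was 0.13. The part of these markers' cell types in the ratios of the 10 genes was not tested.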

How the data were processed

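RNA-seq was performed on 1 control and 1 TNF-α library of cultured mouse mammary basal cells. The authors deposited raw counts of reads per gene, with exon coordinates, strand and summed exon length. The labels name GRCm38 and mm10, and the aligner and counting tool are not given in the sources used here. The series title speaks of a microarray, but the table holds read counts, and the labels and the paper name different RNA isolation kits. All 10 genes had the same chromosome, start and end in GENCODE M21.

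Library sizes were scaled with edgeR 4.0.16 (R 4.3.3, TMM), and ratios, intervals and TPM were computed with Python 3.11.15, numpy 2.4.6, pandas 2.3.3 and scipy 1.17.1. Figures were drawn with matplotlib 3.10.9. The quasi-likelihood test of edgeR needs replicates and was not run, and no p-value is given. A count of 10 was worth 0.224 CPM in the control and 0.187 CPM in the TNF-α library. Intervals for differences between log2 ratios are normal approximations from the counts. The code was tested on simulated data.

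The 10 genes and the lists were chosen with earlier results of these data known. Named genes were all 10, the receptors and ligand, the called, highest and lowest genes of each other list, and the neighbours of called members. Alternatives were total counts, DESeq2 1.42.0 size factors, upper quartile scaling, other filters, folds, intervals and prior counts, and halved counts. Promoters came from RefSeq on GRCm38.p6.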

Additional observations from a re-analysis of the deposited data

How the results depend on the processing

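No paired analysis was possible because control and TNF-α were single libraries, which also allowed no leaving out of replicates. Under 8 alternatives of scaling, filter, prior count and halved counts, the log2 ratio of each of the 10 genes stayed within its counting interval, and the same 4 genes were called in each. Much of this was set in advance. A filter cannot change the ratio of a gene that passes it, and at these counts prior counts and halving barely can. The median of the 10 genes lay between 0.87 and 0.89. Requiring the whole interval past 2-fold left 3 members called higher, without Traf1, beside 776 of the 20771 genes tested. A 1.5-fold threshold gave 6, beside 12.1% of all genes tested. Low counts were in excess at even values (618 genes with 1 count and 2172 with 2 in the control library), and with halved counts the interval of Traf1 widened to 0.87 to 1.48 and that of Tradd to -0.23 to 0.42. Intervals for differences and level ratios between genes were not recomputed with halved counts and would widen too.

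Over all genes, 1535 were called higher and 1223 lower. There were 836 and 658 with at least 1 CPM, where fewer genes were tested (15605), 2522 and 2130 at 1.5-fold, and 776 and 561 with the whole interval past 2-fold, because the threshold differs. The median of the NF-κB subunits and IκB proteins was 1.02 with at least 1 CPM in place of 0.77, since fewer of its genes were tested. The other list medians stayed between the median lower limit and the median upper limit of their genes' intervals under the alternatives run. These limits are not a counting interval of the median itself.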
